A study of Mus musculus with 4 samples.

Results

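The Fc gamma receptor cluster of mouse chromosome 1 was examined through every strain-enriched region of active chromatin that fell in it. The cluster holds Fcgr2b, Fcgr4, Fcgr3 and Fcer1g, and regions were taken when their midpoint lay in the interval chr1:170950000-171250000 of mm10, or when an H3K27ac region was assigned to 1 of these 4 genes in the deposited annotation. This gave 15 of 31315 regions in all. They were 5 of 12077 NOD-enriched and 5 of 7587 B6-enriched H3K4me3 regions, with 3 of 6126 NOD-enriched and 2 of 5525 B6-enriched H3K27ac regions. A single H3K27ac region was assigned to a member gene, Fcgr3, and it also lay in the interval.

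The groups were embryonic stem (ES) cells of the diabetes-prone non-obese diabetic (NOD) strain and of the C57BL/6 (B6) strain, both grown in 2i medium, which contains a MEK inhibitor and a GSK3 inhibitor. ChIP-Seq of H3K4me3 (trimethylation of histone H3 lysine 4, typical of promoters) and of H3K27ac (acetylation of lysine 27, typical of active promoters and enhancers) gave 1 library per strain and mark, 4 samples without replicates. The ES cell line behind each library was not given in the sources used here, so a property of the strain and of a single line or library cannot be told apart. The peak caller took the opposite strain as background for every list, so a NOD to B6 difference in every region is what selected it, and no test between strains was possible. The file headers give 22750449 tags for the NOD and 14791364 for the B6 H3K4me3 library, and no depth for H3K27ac.

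Fc gamma receptors bind the constant part of immunoglobulin G on immune cells. Fcgr3 and Fcgr4 encode activating receptors, Fcgr2b encodes the inhibitory receptor, and Fcer1g encodes the common gamma chain that activating receptors need for signalling and surface expression. These genes are known for their roles in macrophages, neutrophils, natural killer cells, mast cells and B cells rather than in ES cells. Genes for transfer RNAs (tRNAs) are also dense in this stretch. They are short, are transcribed by RNA polymerase III from promoter elements inside the gene (the A box and the B box), and when active are typically flanked by nucleosomes that carry H3K4me3.

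The sequences on which the results turn are shown first, all from the RefSeq genome GRCm38.p6, the same build as mm10, 5′ to 3′. The first is the Fcgr3-assigned NOD-enriched H3K27ac region (chr1:171047103-171047336, plus strand), with repeat-masked bases in capitals. These made up 182 of its 234 bases and include the B1 repeat to which the deposited annotation assigned the region.
NOD H3K27ac region assigned to Fcgr3: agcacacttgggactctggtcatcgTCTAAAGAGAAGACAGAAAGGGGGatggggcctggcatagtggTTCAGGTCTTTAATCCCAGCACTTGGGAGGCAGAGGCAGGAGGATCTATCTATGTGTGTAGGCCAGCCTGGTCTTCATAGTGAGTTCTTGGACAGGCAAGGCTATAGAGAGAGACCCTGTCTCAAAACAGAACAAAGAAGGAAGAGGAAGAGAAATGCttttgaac
The next are 3 tRNA genes that lay under B6-enriched H3K4me3 regions, all on the minus strand, with the B box in capitals. They were an asparagine tRNA gene, n-TNgtt6 (chr1:171033942-171034015), and the aspartate tRNA genes n-TDgtc4 (chr1:171037029-171037100) and n-TDgtc3 (chr1:171065358-171065429).
n-TNgtt6: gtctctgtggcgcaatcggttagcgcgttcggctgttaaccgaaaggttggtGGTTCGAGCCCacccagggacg
n-TDgtc4: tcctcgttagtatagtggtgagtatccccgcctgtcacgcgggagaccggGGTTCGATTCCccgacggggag
n-TDgtc3: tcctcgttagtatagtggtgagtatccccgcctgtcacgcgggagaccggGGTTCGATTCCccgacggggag
The aspartate genes were identical in 72 of 72 bases, although they lie in different places in the cluster. The last is Fcgr3 coding exon 3 (chr1:171057691-171057948, minus strand), which lay under a NOD-enriched H3K4me3 region. Capitals mark the 102 of 258 bases that fall in a stretch of 50 bases, the read length, with another exact copy in the interval.
Fcgr3 exon 3: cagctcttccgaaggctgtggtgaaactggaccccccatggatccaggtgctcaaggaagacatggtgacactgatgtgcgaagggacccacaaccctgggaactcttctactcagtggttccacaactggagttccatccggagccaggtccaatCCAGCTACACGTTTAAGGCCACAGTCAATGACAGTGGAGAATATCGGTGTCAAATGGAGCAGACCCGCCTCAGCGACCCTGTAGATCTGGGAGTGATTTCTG

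Among the member genes, Fcgr3 was the only one with a region of any list in its body or within 5 kb of a transcription start site (TSS). Fcgr3 (gene 14131, chr1:171051169-171065915, minus strand) had 2 NOD-enriched and 1 B6-enriched H3K4me3 regions. Fcgr2b (gene 14130, chr1:170960558-170976071, minus strand), Fcgr4 (gene 246256, chr1:171018926-171029761, plus strand) and Fcer1g (gene 14127, chr1:171229572-171234349, minus strand) had none in any of the 4 lists. Over all 21774 protein-coding genes of the primary chromosomes, 24.4% had a NOD-enriched and 16.4% a B6-enriched H3K4me3 region by the same rule, and 16.5% and 14.5% had a NOD-enriched and a B6-enriched H3K27ac region. With 1 of 4 genes for H3K4me3 of either strain and 0 of 4 for H3K27ac, the member genes gave no count that stands apart from this background.

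The distance from each member's curated TSS to the nearest region centre shows how far the marks lay from 3 of these genes. For the inhibitory receptor Fcgr2b, the nearest H3K4me3 region was 71.3 kb away in the NOD list and 53.9 kb in the B6 list. For Fcgr4 it was 28.5 kb in the NOD list and 14.8 kb in the B6 list. For Fcgr3 it was 1.64 kb in the NOD list and 5.71 kb in the B6 list. For the signalling chain gene Fcer1g, the nearest NOD-enriched region was 23.6 kb away, past the end of the interval, and the nearest B6-enriched one 120 kb away. The nearest H3K27ac regions lay 12.2 kb (NOD) and 43.8 kb (B6) from the Fcgr3 start and between 28.3 and 127 kb from the starts of the other members. The lists hold only regions past a threshold of difference, so a gene without a region may carry the mark to a similar degree in both strains or not at all.

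All 15 regions lay within 89.6 kb, from 171033106 to 171122727, which is 29.9% of the 300 kb interval. The span began 3.35 kb past the end of Fcgr4 and ended inside Cfap126, a gene for a cilium-associated protein. The 83.1 kb before it, which holds Fcgr2b and Fcgr4, had no region, and neither did the 127 kb after it. Of the 12 protein-coding genes that overlap the interval, only Fcgr3 and Cfap126 had a region. Those without one included Fcgr2b, Fcgr4 and Fcer1g, Sdhc (a subunit of succinate dehydrogenase), Pcp4l1, Nr1i3 (a nuclear receptor for foreign compounds), Tomm40l and Apoa2 (an apolipoprotein). The nearest H3K4me3 regions outside the interval were a NOD-enriched one 7.99 kb after it in Adamts4, with 28 NOD tags and 0 B6 tags, and a B6-enriched one 27.8 kb before it in Fcrla, with 0 NOD tags and 25 B6 tags.

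**Figure D1:**
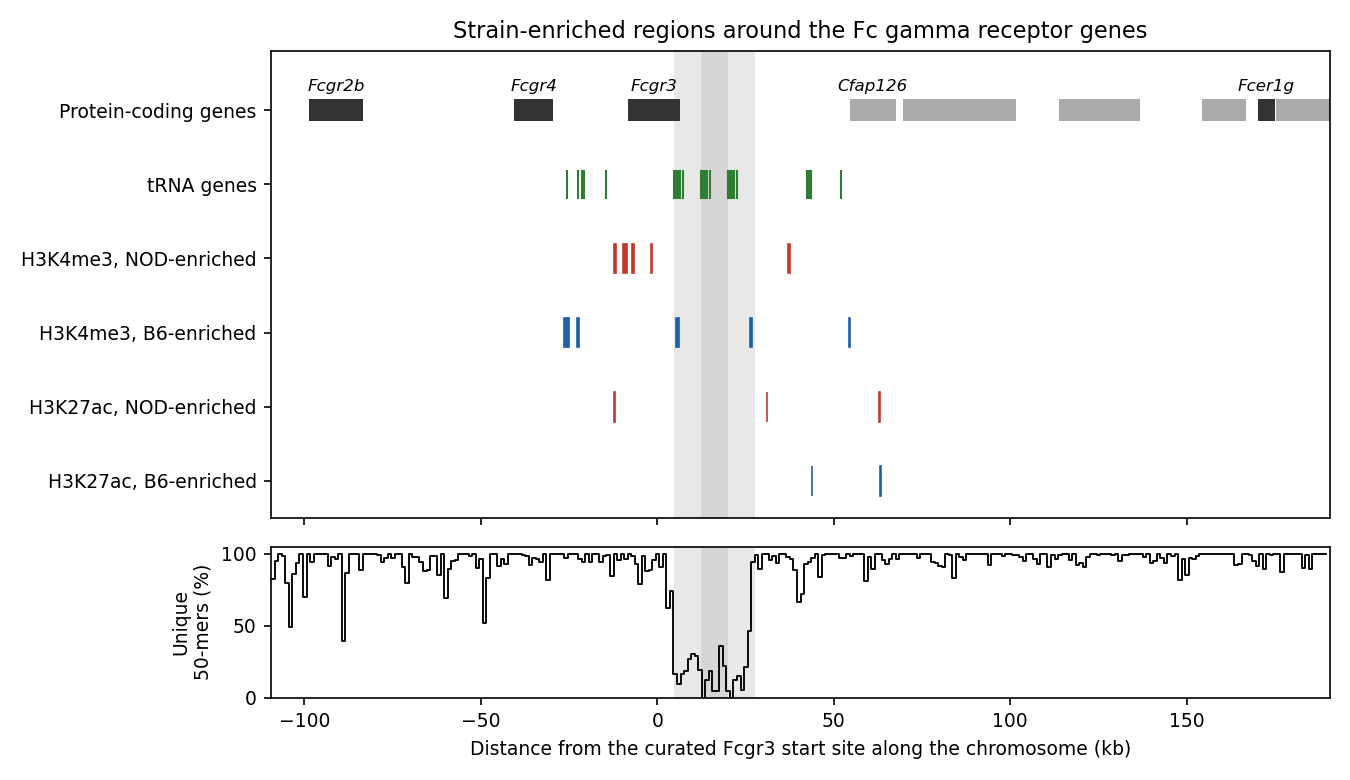
Map of the 300 kb interval by distance from the curated Fcgr3 start site (kb, in the direction of the chromosome), with protein-coding genes (members black, others grey), tRNA genes, the strain-enriched regions of each list, and the percentage of 50-base sequences that occur once in the genome in 1 kb bins. Region bars carry a thin outline so that narrow ones can be seen, and grey bands are the 3 units of the tRNA array. The span of all 15 regions begins past the end of Fcgr4 and ends inside Cfap126.

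The number of regions per list was set beside all 8770 intervals of 300 kb into which the primary chromosomes other than Y were divided. Stretches of unknown sequence, which can hold no region, were not left out. At least 5 NOD-enriched H3K4me3 regions lay in 6.26% of them, and at least 5 B6-enriched ones in 1.2%. Both held in 25 intervals, or 0.285%. For H3K27ac, at least 3 NOD-enriched regions lay in 7.22% of intervals and at least 2 B6-enriched regions in 15.9%. The cluster was therefore among the more crowded intervals for H3K4me3 of both strains, but its interval was drawn with these lists known, and the share is a description. The most crowded intervals had 27 H3K4me3 regions from the NOD list and 25 from the B6 list.

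Along the chromosome, the 10 H3K4me3 regions formed runs by strain in the order B6, B6, NOD, NOD, NOD, NOD, B6, B6, NOD and B6, with 4 changes of strain. The run of 4 NOD-enriched regions started 12 kb downstream of the curated Fcgr3 TSS and ended at coding exon 3, and each neighbouring run was B6-enriched and contained tRNA genes. Tags are given as counted in each library and as normalised tags, which are tags per 10000000 library tags, and ratios as own strain over other strain per library total with an exact binomial 95% interval. These intervals cover counting error only, and every ratio of about 4 or more was required by the peak caller.

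The region with the most tags lay in the run around Fcgr3, immediately past the 3′ end of the gene (chr1:171049810-171050828). It held 332 NOD tags and 47 B6 tags, or 146 and 31.8 normalised tags, a ratio of 4.59 (95% interval 3.38 to 6.37). It ranked 144 of 12077 NOD-enriched regions by normalised tags, in the top 1.19%. It was thus among the more strongly tagged regions of its list, but the B6 library was not empty there. The B6-enriched region at Cfap126 also held 47 B6 tags, but in 500 bp, while this region was 1018 bp wide. A stretch of this region occurs up to 7490 times in the genome, although 96.5% of its 50-base sequences were unique.

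The other 3 regions of this run had fewer tags. The most distant from the Fcgr3 TSS (chr1:171047019-171047783, intergenic) held 63 NOD tags and 0 B6 tags, at least 13.7-fold higher in NOD when the count of 0 is set to a floor of 3 tags (exact lower 95% limit of the ratio 10.8), and ranked 1920. The region in the last intron of Fcgr3 (chr1:171052380-171052880) held 28 NOD tags and 0 B6 tags, at least 6.07-fold higher in NOD at that floor (exact lower limit 4.62), and ranked 6686. The region over coding exon 3 (chr1:171057518-171058018) held 23 NOD tags and 3 B6 tags, a ratio of 4.98 (1.51 to 25.9), and ranked 9116. Both regions inside the gene therefore sat in the lower part of the NOD list, with 12.3 and 10.1 normalised tags beside a list median of 13.2. Neither covered the curated start site, which is 1.63 kb from the centre of the exon 3 region.

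The exon 3 region shares sequence with the inhibitory receptor gene. Of the 452 sequences of 50 bases in it, 55 (12.2%) had another exact copy in the interval, and every one of these copies lay in Fcgr2b. The shared bases are those in capitals in the exon printed above. A read that falls wholly within them cannot be placed in 1 gene by its sequence alone, and its part in the 23 and 3 tags was not tested.

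The remaining NOD-enriched H3K4me3 region lay apart from the others, between the tRNA array and Cfap126 (chr1:171096490-171096990). It was intergenic and held 22 NOD tags and 0 B6 tags, at least 4.77-fold higher in NOD at the floor of 3 tags (exact lower limit 3.56), ranking 9537. In 3 of the 5 NOD-enriched regions of the cluster the B6 library had no tags, while 34.9% of all NOD-enriched regions had none. The same was true of 1 of the 5 B6-enriched regions, beside 37.7% of that list.

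**Figure D2:**
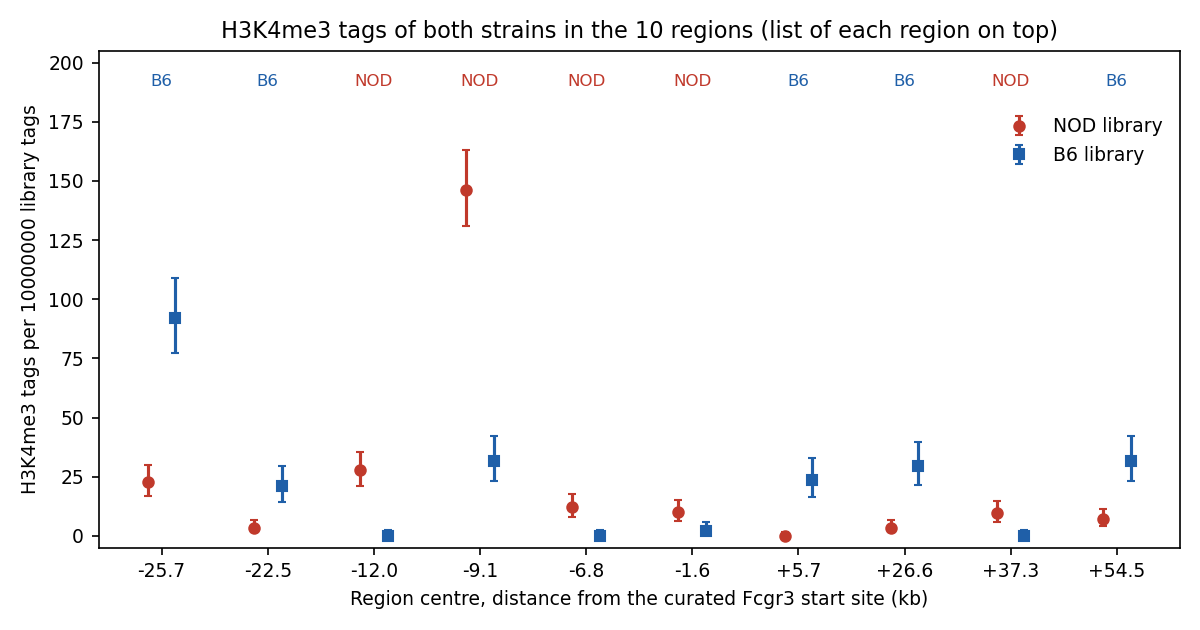
H3K4me3 tags per 10000000 library tags in the 10 regions of the cluster, by distance of the region centre from the curated Fcgr3 start site (kb, in the direction of the chromosome), for the NOD library (circles) and the B6 library (squares), with exact Poisson 95% intervals that cover counting error only. The strain above each pair names the list that the region is from, and the NOD value of 146 just past the Fcgr3 3′ end is the highest value plotted.

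Of the 5 B6-enriched H3K4me3 regions, 3 overlapped a tRNA gene and all 5 lay within 5 kb of one, while 0.303% and 0.778% of all B6-enriched regions did. None of the 5 NOD-enriched regions overlapped a tRNA gene and 3 lay within 5 kb of one, beside 0.0414% and 0.282% of that list. The interval holds 25 of the 403 tRNA genes of the primary chromosomes, all within the 89.6 kb that holds the regions. Closeness to a tRNA gene is therefore common in this stretch, although some regions of the cluster lay 6.15 to 10.9 kb from the nearest one. Counted by tRNA gene, 3 of 25 (12%) in the interval had a B6-enriched H3K4me3 region, beside 21 of 378 (5.56%) elsewhere. For NOD-enriched H3K4me3 regions the counts were 0 of 25 and 5 of 378 (1.32%). Over all 403 tRNA genes the shares were 5.96% for B6-enriched and 1.24% for NOD-enriched H3K4me3 regions. For H3K27ac, 0 of the 25 tRNA genes overlapped a region of either list, beside 0.744% (NOD) and 1.49% (B6) of all 403.

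The highest of these regions overlapped the asparagine tRNA gene n-TNgtt6 and the long non-coding RNA gene Gm35090 (chr1:171033106-171034335). It held 52 NOD tags and 136 B6 tags, or 22.9 and 91.9 normalised tags, a ratio of 4.02 (2.9 to 5.65), and ranked 69 of 7587, in the top 0.909%. The region over n-TDgtc4 (chr1:171036645-171037145) held 8 NOD tags and 31 B6 tags, a ratio of 5.96 (2.68 to 15), and ranked 1063. The region over n-TDgtc3 (chr1:171064785-171065434) held 0 NOD tags and 35 B6 tags, at least 17.9-fold higher in B6 with NOD set to 3 tags (exact lower limit 13.8), and ranked 815. It also covered 2 of the 7 TSSs that RefSeq gives for Fcgr3, both of predicted transcripts, and it is the single B6-enriched region counted at Fcgr3 above. With curated transcripts only, a choice made after seeing the data, Fcgr3 had 0 B6-enriched H3K4me3 regions.

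The other B6-enriched regions did not cover a tRNA gene. One lay in intergenic sequence 3.7 kb from n-TGgcc14 (chr1:171085645-171086274) and held 8 NOD tags and 44 B6 tags, a ratio of 8.46 (3.94 to 20.8), ranking 548. The last covered a TSS of Cfap126 (chr1:171113614-171114114) and held 16 NOD tags and 47 B6 tags, a ratio of 4.52 (2.52 to 8.54), ranking 486. The median of the 5 regions, 29.7 normalised tags, was above the 13.5 of the whole B6 list, while the median of the 5 NOD-enriched regions, 12.3, was near the 13.2 of theirs.

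A search on both strands for the B box (the letters GGTTCGA, any pair of bases, then CC) found it in all 25 tRNA genes of the interval. It was present in the 3 B6-enriched H3K4me3 regions that overlap a tRNA gene and in none of the other 12 regions. Over the full lists it was present in 0.373% of NOD-enriched and 0.422% of B6-enriched H3K4me3 regions, and in 0.816% (NOD) and 0.652% (B6) of the H3K27ac lists. The motif is part of the tRNA genes, so this count repeats the overlap given above.

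Part of the tRNA cluster is a tandem array that overlaps the 5′ part of Fcgr3 given by predicted transcripts. It consists of 3 units, each with 1 tRNA gene for glutamate (CTC anticodon), glycine (TCC), aspartate (GTC), leucine (CAG) and glycine (GCC). The units began at 171064164, 171071792 and 171079406 and were 7628, 7614 and 7614 bp long. Aligned bases were 99.3% identical between units 1 and 2, 97.8% between units 2 and 3 and 96.9% between units 1 and 3. Units 1 and 3 each held 1 B6-enriched H3K4me3 region, and no other region of any list lay in the array.

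This repetition limits where a 50-base read can be placed. In the 24 bins of 1 kb that the array touches, a median of 17.6% of 50-base sequences occurred once in the genome, and in the other 276 bins of the interval the median was 99.2%. The region over n-TDgtc3 in unit 1 had 16.3% unique 50-base sequences, and 501 of its 601 (83.4%) had another copy in the interval. Regions with under 50% unique sequences were 3.81% of the B6-enriched and 1.82% of the NOD-enriched H3K4me3 list. The region in unit 3 had 83.1% unique sequences, and the 8 other H3K4me3 regions had between 87.8% and 100%. Reads of both strains were mapped to a reference built from B6, and what differences in copy number or sequence between NOD and B6 contribute to these counts was not tested.

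Summed over the 5 NOD-enriched regions there were 468 NOD tags and 50 B6 tags in 3.28 kb, a NOD to B6 ratio of 6.09 (4.54 to 8.32). Over the 5 B6-enriched regions there were 84 NOD tags and 293 B6 tags in 3.51 kb, a ratio of 0.186 (0.144 to 0.238). Both ratios follow from how the lists were made. Over all 10 regions the sums were 552 NOD tags and 343 B6 tags in 6.79 kb, or 243 and 232 normalised tags, a ratio of 1.05 (0.913 to 1.2). This ratio depends on how many regions of each list lie in the interval, and it was 0.617 (0.538 to 0.708) when the sums were scaled by the tags in all listed regions, so no difference or likeness between the strains is read from it.

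H3K27ac in the cluster was led by the region that the deposited annotation assigned to Fcgr3. It lay in the intergenic sequence 12.2 kb downstream of the curated Fcgr3 TSS, inside the NOD-enriched H3K4me3 region with 63 NOD tags and 0 B6 tags. It was the only place in the interval where both marks overlapped. Over the whole lists, 9.86% of NOD-enriched H3K27ac regions overlapped a NOD-enriched H3K4me3 region and 4.65% of B6-enriched ones a B6-enriched H3K4me3 region. The TSS closest to it among all RefSeq genes was that of the glycine tRNA gene n-TGgcc4, 2.23 kb away.

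H3K27ac scores are differences in signal (own minus other strain) in a unit that the files do not name. The Fcgr3-assigned region had a score of 81.6 and ranked 605 of 6126 NOD-enriched regions. It was 233 bp wide, the smallest width in the list, which 2890 regions (47.2%) shared. Among these it had the second highest score, after a region with 132.5 assigned to Suz12 (a subunit of the Polycomb repressive complex that methylates H3K27), while the median was 8.68. The 604 regions that scored above it had a median width of 2313.5 bp, and by score per base pair it ranked 13.

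The deposited column taken as the slope of the ranked score curve, a reading that the files do not state, held 1.095 for this region. That is past the value of 1 that is used to mark super enhancers, which are usually long stretches of clustered enhancers. A slope value of at least 1 with a score above 0 was held by 500 NOD-enriched regions (8.16%), with a median width of 5990 bp. In the B6 list 7.06% of regions met both conditions, and neither B6-enriched region of the cluster did. Only 3 of the 500 NOD-enriched regions had the smallest width, and these were assigned to Fcgr3, Suz12 and Lif, the gene of the cytokine that maintains ES cells. The Fcgr3-assigned region is thus past this slope value at the smallest width of the list. The column does not follow the score alone, since 604 NOD-enriched regions scored above this one while only 500 held at least 1. No super enhancer is therefore read from the value here. The study's own analysis of H3K27ac named Fcgr3 (as CD16) among top super enhancers in NOD ES cells. Whether that call rests on this region was not tested.

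**Figure D3:**
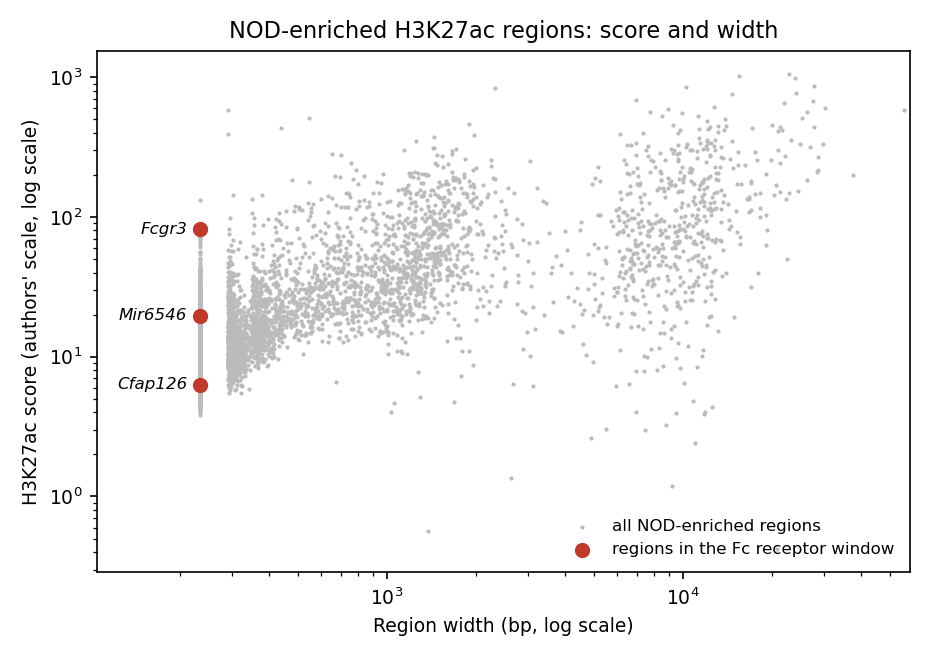
Score of each NOD-enriched H3K27ac region with a score above 0 (authors' scale, log axis) against its width (bp, log axis), with the 3 regions of the Fc receptor cluster in red and labelled with the gene assigned in the file. All 3 have the smallest width of 233 bp, and the Fcgr3-assigned region with a score of 81.6 is near the top of that column.

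The other H3K27ac regions of the cluster scored lower. A NOD-enriched region assigned to the microRNA gene Mir6546, 25.8 kb away (chr1:171090377-171090610), scored 19.6 and ranked 2171. A B6-enriched region (chr1:171103115-171103377) that starts 1 bp past the glutamate tRNA gene n-TEctc6 and was assigned to Cfap126 scored 14.9 and ranked 2298 of 5525. In the first intron of Cfap126, a NOD-enriched region scored 6.31 (rank 5733) and a B6-enriched one scored 8.15 (rank 4709), and these overlapped by 6 bp. The deposited annotation placed them 0.693 kb (NOD) and 0.935 kb (B6) from a Cfap126 TSS, so both lay close to a start site. The intron thus had a region in each strain's list at adjoining positions, both in the lower part of the ranking. All 5 H3K27ac regions had the smallest width of their list, which 47.2% of the NOD and 50.6% of the B6 list shared. None of the 5 overlapped a tRNA gene (0.049% of the NOD and 0.0905% of the B6 list did), and 1 region of each strain lay within 5 kb of one, beside 0.424% and 0.362% of the lists. The NOD scores summed to 108 over 0.699 kb and the B6 scores to 23.1 over 0.524 kb. Of the NOD sum, 81.6 came from the Fcgr3-assigned region. Both sums depend on how many regions of each list lie in the interval, and neither depth nor unit is given for H3K27ac. No difference between the strains is therefore read from them.

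The Fcgr3-assigned and the Mir6546-assigned regions were both annotated to B1 repeats, short interspersed elements of the Alu family (B1_Mur2 and B1_Mus1). Over the lists, 4.77% of NOD-enriched and 3.33% of B6-enriched H3K27ac regions were annotated to this family, and 9.91% and 9.03% to any short interspersed element. Repeat-masked bases made up 77.8% of the Fcgr3-assigned region and 58.5% of the Mir6546-assigned one, beside a list median of 22.2%. In spite of the repeats, 100% of the 50-base sequences of each of the 5 H3K27ac regions occurred once in the genome. Under 50% unique sequences were found in 2.29% of the NOD and 0.76% of the B6 H3K27ac list.

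The wider Fc receptor pathway was described with a list of 38 genes for other Fc receptors, Fc receptor-like proteins and the kinases and adaptors downstream of them. A NOD-enriched H3K4me3 region was present at 10 of 38 (26.3%) and a B6-enriched one at 10 of 38 (26.3%), beside 24.4% and 16.4% of all protein-coding genes. A NOD-enriched H3K27ac region was present at 6 (15.8%) and a B6-enriched one at 7 (18.4%), beside 16.5% and 14.5%. The pathway as a whole was therefore near the background in 3 of the 4 lists, and in the B6 H3K4me3 list its share was higher by a few genes. No count of the pathway was tested.

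Among receptors of this list, Fcer1a, which encodes the ligand-binding chain of the high-affinity receptor for immunoglobulin E, had a NOD-enriched H3K4me3 region with 37 NOD tags and 0 B6 tags. It also had a B6-enriched region with 0 NOD tags and 16 B6 tags. Among kinases and adaptors, the highest NOD-enriched H3K4me3 regions were at Vav2, a guanine nucleotide exchange factor, with 41 NOD tags and 4 B6 tags, and at Syk, the kinase that binds the phosphorylated gamma chain, with 38 NOD tags and 3 B6 tags. Plcg2, a phospholipase downstream of Syk, had one with 33 NOD tags and 0 B6 tags. At Blnk, a B cell adaptor, a B6-enriched H3K4me3 region with 9 NOD tags and 46 B6 tags lay beside a B6-enriched H3K27ac region with a score of 158.8. The top H3K27ac scores of the list were those of Fgr, a Src family kinase, with 204.6 and 146.4 in the NOD list, Blnk, and Fcrl5, a receptor-like gene of B cells, with 108.1 in the B6 list. Grb2 and Pik3r1 followed with 74.3 and 71.7 in the NOD list. Several of these genes were also in lists of the other strain. The Fgr region with 204.6 overlapped a B6-enriched H3K4me3 region with 3 NOD tags and 12 B6 tags. Plcg2 had a B6-enriched H3K4me3 region (6 NOD, 19 B6 tags) and Fcrl5 a NOD-enriched one (23 NOD, 3 B6 tags). B6-enriched H3K27ac regions scored 13.2 and 9.17 at Vav2 and 41.0 and 8.83 at Grb2. Syk, Blnk and Pik3r1 had regions in lists of a single strain.

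Marker genes of cells that use these receptors were examined in the same way, beside the shares of all protein-coding genes given above (24.4% and 16.4% for NOD-enriched and B6-enriched H3K4me3, 16.5% and 14.5% for H3K27ac). Of 10 markers of myeloid cells, Adgre1, Cd68 and Itgam had a NOD-enriched and Lyz2, Spi1 and Tyrobp a B6-enriched H3K4me3 region, and 0 had an H3K27ac region in either list. Of 5 B cell markers, 0 had a region in any list. Of 4 natural killer cell markers, Klrd1 had a B6-enriched H3K4me3 region and Klrb1c a NOD-enriched H3K27ac region. Of 3 mast cell markers, Kit had a NOD-enriched H3K4me3 region and 2 B6-enriched H3K27ac regions. Of 9 ES cell markers, 5 had a NOD-enriched H3K4me3 region (Esrrb, Pou5f1, Sox2, Tfcp2l1 and Zfp42), 3 a B6-enriched one (Dppa3, Esrrb and Tfcp2l1), and Dppa3 a NOD-enriched H3K27ac region. These lists show differences between strains and not levels, so the labelled cell type could not be checked from them, and the part of other cell types in the regions of the cluster was not tested.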

How the data were processed

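Regions from 4 deposited files were analysed, 1 per strain and mark, with groups taken from the labels. According to the methods and file headers, the authors mapped single-end 50 bp reads to mm10 with bowtie2, whose version the sources used here do not give, and called regions with HOMER 4.8 against the library of the other strain. The submitters' processing notes name mm9, STAR 2.2.0c and CASAVA 1.8.2. mm10 was used here, since the file headers and methods name it. Per the file headers, H3K4me3 calls required at least 8 tags in peaks of 500 bp, a 4-fold ratio and a Poisson p of 1.00e-04 over the other strain. The deposited tag count is whole in the B6 list. The deposited signal is tags per 10000000 or scaled to the B6 library, and the header totals turned these back into whole NOD tags (largest distance from a whole number 0.077, tolerance 0.1). The deposited fold is a ratio that holds a small constant where the other strain has no tags, and such regions were treated as 0. The deposited H3K27ac score is own minus other strain.

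With 1 library per group no test was made. The members, interval and gene lists were chosen with earlier results of these data known. Named genes were the members, the protein-coding genes of the interval (some are not reported here), and the pathway genes with the 5 highest tags or scores. Regions were joined to the RefSeq annotation of GRCm38.p6 (overlap of at least 1 bp), and sequences of 50 bases were counted over that genome on both strands, with Biopython 1.88, numba 0.67.0, scipy 1.17.1, pandas 2.3.3 and numpy 2.4.6 under Python 3.11.15. Tag ratios have exact conditional binomial 95% intervals for counting error, with a floor of 3 tags. Functions for ratios and sequence copies were tested on simulated data. Window limits, thresholds, distances, scaling and gene assignment were varied.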

Additional observations from a re-analysis of the deposited data

How the results depend on the processing

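Of 28 alternatives, 19 gave the same or a nearby value and 9 moved it. Widening the interval by 100 kb on each side gave 10 NOD-enriched H3K4me3 regions in place of 5 and 4 B6-enriched H3K27ac regions in place of 2. With at least 30 own-strain tags for H3K4me3 and a score of at least 20 for H3K27ac, 2 NOD-enriched H3K4me3, 1 NOD-enriched H3K27ac and 0 B6-enriched H3K27ac regions were left, while all 5 B6-enriched H3K4me3 regions stayed. By the nearest RefSeq TSS, 0 H3K27ac regions were assigned to a member gene in place of 1, since a tRNA gene was closer. With curated transcripts only, chosen after seeing the data, B6-enriched H3K4me3 regions at a member gene fell from 1 to 0. The summed NOD to B6 tag ratio of 1.05 was 0.617 (0.538 to 0.708) when scaled by tags in all listed regions, 0.916 (0.795 to 1.06) over regions with at least 30 tags, and 1.17 (1.01 to 1.34) over regions with at least 50% unique 50-base sequences, the last also chosen after seeing the data, so its side of 1 changed with the setting. The rank of the Fcgr3-assigned H3K27ac region was 605 by score and 13 by score per base pair. No paired analysis was possible because each strain and mark had 1 library and no result comes from a test. The NOD H3K4me3 library was 1.54 times as deep as the B6 one, and 1 library per group leaves the spread between cultures unknown.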
